A study of Mus musculus with 15 samples.

Results

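Neuregulins are growth factors with an EGF-like domain that bind ErbB receptor tyrosine kinases on neurons and glia. ErbB3 and ErbB4 bind neuregulins, ErbB2 has no neuregulin of its own and signals as their dimer partner, and ErbB3, whose own kinase activity is weak, recruits PI 3-kinase. In the nervous system this pathway is known for axon-to-Schwann cell signaling in myelination, for oligodendrocyte development and for synapses on ErbB4-bearing neurons. The 7 genes described here were chosen by symbol: the ligands *Nrg1*, *Nrg2*, *Nrg3* and *Nrg4* and the receptors *Erbb2*, *Erbb3* and *Erbb4*, of 35142 genes to which the deposited transcripts were summed. All 7 were found.

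RNA was sequenced from 15 cultures of cerebellar cells, taken from C57BL/6 wild-type pups at postnatal day 0 to 4 and plated at 90000 cells per well. At day 14 in vitro, 5 cultures received recombinant mouse IL-12p70, which is the bioactive form of IL-12, a cytokine of T cell and NK cell responses, at 30 ng/ml for 18 h, 5 received 100 ng/ml, and 5 were left unstimulated, so that all groups shared strain, medium and age. The comparisons address whether IL-12 acts on cultured cerebellar cells without infiltrating immune cells. Nothing in the sources used here says that the cultures of a group came from separate litters, so p-values measure the spread between cultures, which may be technical.

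Between 25746096 and 38435850 reads per culture were assigned to transcripts. The labels call the cells neurons, but RNA of glia was far more abundant: in unstimulated cultures the median marker stood at 5.68 TPM (the transcripts-per-million scale, a level per transcript length) over 18 neuron markers, at 168 TPM over 14 oligodendrocyte-lineage markers, at 230 TPM over 10 astrocyte markers and at 200.3 TPM over 12 microglia markers. Neuron markers ran from *Gad2* at 1.84 TPM to *Map2* at 84.9 TPM, and *Rbfox3*, which encodes the neuronal nuclear protein NeuN, had 3.42 TPM. Oligodendrocyte-lineage markers ran from *Enpp6* at 24.8 TPM to the myelin gene *Mbp* at 4819 TPM. In such mixed cultures, fewer cells of a type and less RNA per cell cannot be told apart. The culture with 100 ng/ml numbered replicate 2 was the least like the rest of its group, with a mean chi-square per gene of at least 17.7 to every other culture of that group, where no other culture of any group had a lowest value above 13.6, and results that turn on it are given without it.

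Several members are made as alternative isoforms, and stretches by which isoforms are named below are shown. The transcript models also differ outside these stretches, so the isoform levels below do not rest on them alone. The printed sequences were read from GRCm39 at the exons of the GENCODE M39 transcripts. *Nrg1* (chr8:32303906-33374825, minus strand) ends its EGF-like domain with either of a pair of exons, beta at chr8:32327698-32327756 or alpha at chr8:32328289-32328356. Capitals mark cysteine codons of the domain.
Nrg1 beta exon: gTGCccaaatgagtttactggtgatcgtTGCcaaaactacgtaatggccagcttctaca
Nrg1 alpha exon: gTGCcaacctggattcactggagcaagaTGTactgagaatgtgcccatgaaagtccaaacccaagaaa
*Erbb4* (chr1:68071345-69147619, minus strand) carries either the JM-a exon (chr1:68329402-68329476), which encodes the juxtamembrane stretch that the sheddase ADAM17 can cut, or the JM-b exon (chr1:68329598-68329642), which encodes a stretch that it does not cut. The CYT-1 exon (chr1:68083067-68083114) is present in CYT-1 and skipped in CYT-2 receptors, and capitals mark the codons of its overlapping binding motifs for WW domains and PI 3-kinase.
Erbb4 JM-a exon: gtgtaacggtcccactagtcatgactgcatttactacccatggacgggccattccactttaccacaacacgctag
Erbb4 JM-b exon: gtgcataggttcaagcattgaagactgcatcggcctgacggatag
Erbb4 CYT-1 exon: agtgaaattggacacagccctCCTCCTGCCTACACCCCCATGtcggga
*Erbb2* (chr11:98303203-98328542, plus strand) has a transcript, Erbb2-202, with no defined coding sequence that keeps an intron of 81 bases at chr11:98323876-98323956, which the coding transcript Erbb2-201 splices out.
Erbb2 retained intron: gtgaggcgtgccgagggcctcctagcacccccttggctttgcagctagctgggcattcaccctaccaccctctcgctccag

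Per transcript length, *Nrg2* was the most abundant member, with a mean of 14.2 TPM over the 15 cultures (range 10.1 to 16.6). *Erbb2* followed at 7.46 TPM (6.23 to 8.91), *Nrg1* at 6.75 TPM (4.87 to 8.82), *Erbb4* at 5.12 TPM (2.82 to 6.29) and *Erbb3* at 5.08 TPM (4.26 to 6.18). *Nrg4* had 1.13 TPM (0.656 to 1.82) and *Nrg3* 0.318 TPM (0.199 to 0.507). *Nrg2* and *Erbb2*, *Erbb3* and *Nrg4*, and *Nrg4* and *Nrg3* were neighbours in this order whose ranges over all cultures did not overlap. The ranges of *Erbb2*, *Nrg1*, *Erbb4* and *Erbb3* overlapped from each to the next, so their order was not set apart from the spread between cultures. *Nrg2* held 63.4% ± 5.57 (SD, n = 15 cultures) of the summed TPM of the ligands and *Nrg1* 30.1% ± 4.96. Among the receptors, *Erbb2* held 42.3% ± 3.38, *Erbb3* 28.9% ± 3.11 and *Erbb4* 28.8% ± 3.75 of the summed TPM.

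**Figure D1:**
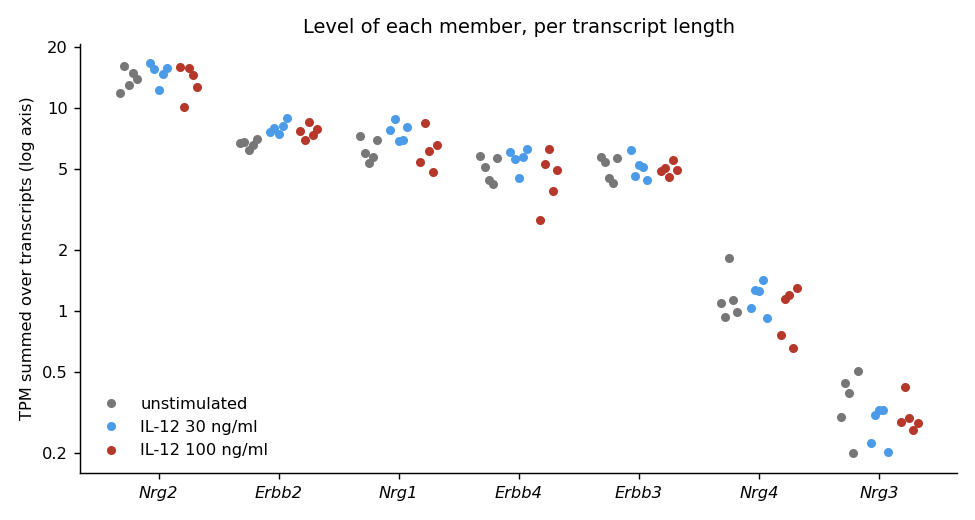
TPM of each member, summed over its transcripts (log axis), in 15 cultures; each point is a culture and the colour its IL-12 group. *Nrg2* lies above all other members in every culture, and *Nrg4* and *Nrg3* lie below the rest.

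The place of *Nrg2* depended on short transcript models. Its leading transcripts by TPM were Nrg2-202 (630 bases) and Nrg2-201 (899 bases), and transcripts under 1000 bases held 81% of its TPM but 47.9% of its estimated counts. The longer coding transcript Nrg2-203 (3056 bases) held 45.8% of the counts and 15.6% of the TPM. With CPM divided by the gene's mean effective length in kilobases in place of TPM, *Nrg2* stood at 5.02 (4.44 to 5.90) and *Erbb2* at 4.66 (4.00 to 5.47), with overlapping ranges. *Nrg1* then stood at 2.84 (2.28 to 3.55), after *Erbb3* at 3.21 (2.74 to 3.83) and *Erbb4* at 2.88 (1.91 to 3.52). The ranges of these genes overlapped, so their order was again not set apart from the spread.

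For the comparison between groups, counts were scaled to the counts-per-million scale (CPM) with TMM factors. The quasi-likelihood test of edgeR was run on the 15360 genes that reached 1 CPM in 2 or more cultures, and the FDR was adjusted over all of them. *Nrg1*, *Nrg2*, *Erbb2*, *Erbb3* and *Erbb4* passed this filter. *Nrg3* and *Nrg4* did not, and no count of calls given here at this filter includes them.

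Of the ligands that passed this filter, *Nrg1* and *Nrg2*, neither was called. *Nrg1*, whose membrane-bound and released forms act on glia and synapses, had 13.6, 11.2, 11.01, 10.7 and 11.7 CPM in unstimulated replicates 1 to 5. It had 13.3, 11.7, 12.4, 13.4 and 13.2 CPM in the replicates with 30 ng/ml and 10.2, 15.2, 12.9, 9.82 and 11.8 CPM in those with 100 ng/ml. The groups overlapped, and both the highest and the lowest culture were at 100 ng/ml. The log2 fold change was 0.13 (95% interval -0.08 to 0.35, FDR = 0.473) at 30 ng/ml and 0.03 (-0.18 to 0.25, FDR = 0.879) at 100 ng/ml, and the latter turned to -0.06 (FDR = 0.675) without replicate 2 of that group. A separate identifier with the symbol *Nrg1* (chr8:32408601-32408786, a single transcript of 186 bases) had at most 2 estimated counts in any culture and was not added to the gene.

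*Nrg2*, a relative of *Nrg1* that also binds ErbB3 and ErbB4, had 7.21, 8.10, 7.67, 7.74 and 7.22 CPM when unstimulated. It had 9.28, 7.93, 7.04, 8.14 and 8.96 CPM with 30 ng/ml and 8.46, 7.32, 8.55, 8.14 and 7.46 CPM with 100 ng/ml. At each concentration 3 of 5 cultures lay above every unstimulated culture, and the others lay within or below them. The log2 fold change was 0.13 (95% interval -0.04 to 0.29, FDR = 0.380) at 30 ng/ml and 0.08 (-0.09 to 0.24, FDR = 0.598) at 100 ng/ml. Exons of *Nrg2* share 1071 bases with *Psd2* on the opposite strand (mean 11.3 TPM), and the sources used here do not say whether the estimates used the strand of the reads.

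*Nrg3*, a mainly neuronal ligand of ErbB4, had 0.502 to 0.986 CPM without IL-12, 0.460 to 0.561 CPM at 30 ng/ml and 0.538 to 0.743 CPM at 100 ng/ml. The 3 ranges overlapped. Without a filter on low counts, its log2 fold change was -0.48 (FDR = 0.344) at 30 ng/ml and -0.24 (FDR = 0.622) at 100 ng/ml.

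*Nrg4*, best known as a ligand secreted by fat that binds ErbB4, had 0.915, 0.825, 1.39, 1.004 and 0.688 CPM in unstimulated cultures. It had 0.660, 0.626, 0.711, 0.618 and 0.637 CPM at 30 ng/ml and 0.439, 0.626, 0.680, 0.639 and 0.845 CPM at 100 ng/ml. The lowest unstimulated culture lay within the range of both stimulated groups, and the other 4 lay above every culture at 30 ng/ml. Tested among the 15503 genes with at least 10 counts in every culture, *Nrg4* fell by 0.56 ± 0.17 (SE) on the log2 scale with the mean of both concentrations (FDR = 0.0350, beside 11.9% of those genes called), and was not called at 100 ng/ml (FDR = 0.0748) or 30 ng/ml (FDR = 0.0871) alone. Without any filter the same contrast had an FDR of 0.1004. The call does not carry over to the level per transcript length, which was 1.20 ± 0.36 TPM (SD, n = 5) without IL-12, 1.18 ± 0.20 TPM with 30 ng/ml and 1.01 ± 0.29 TPM with 100 ng/ml. Exons of *Nrg4* share 1595 bases with *Fbxo22* on the opposite strand, which had a mean of 1203 counts and a log2 difference of 0.10 between both concentrations and unstimulated cultures (FDR = 0.0782), and its part in the values of *Nrg4* was not tested.

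**Figure D2:**
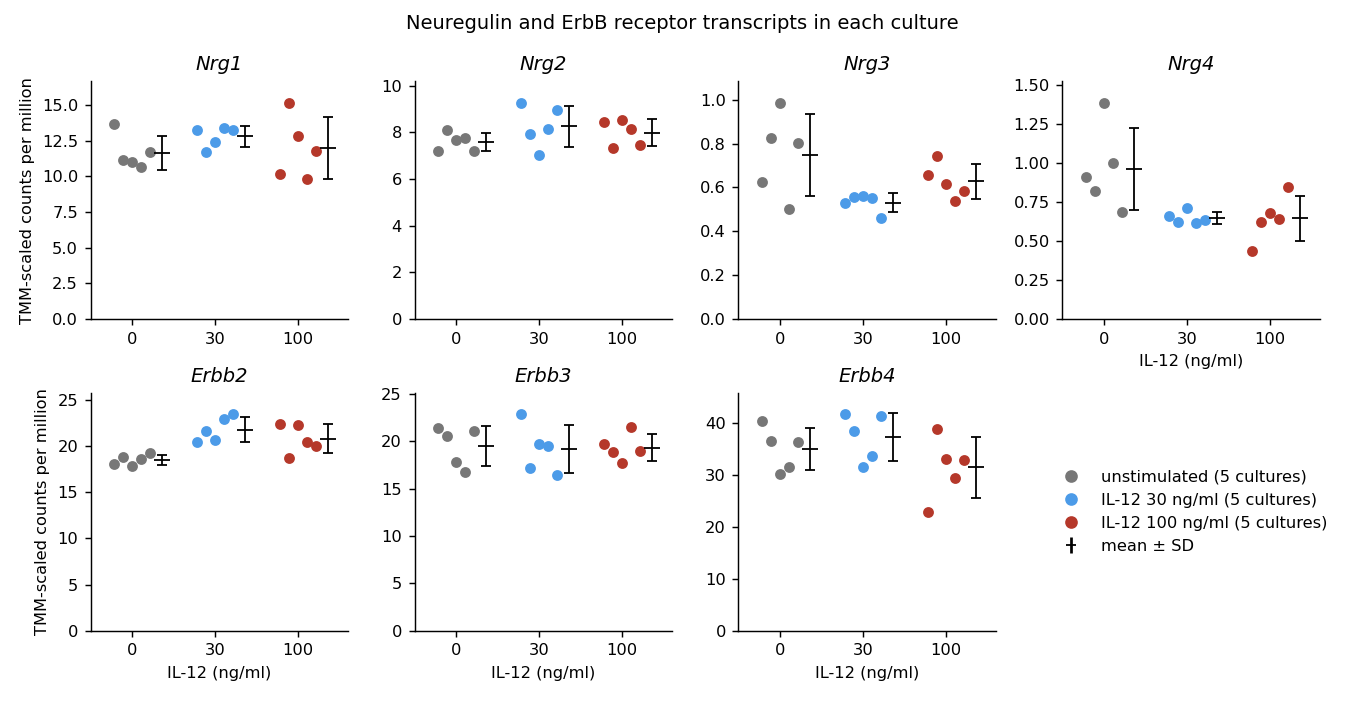
TMM-scaled CPM of the 7 members against IL-12 concentration; each point is a culture, in the order of its replicate number, and bars give mean ± SD of 5 cultures. Every *Erbb2* value at 30 ng/ml (20.4 to 23.4) lies above every unstimulated value (17.8 to 19.2), whereas the groups of the other members overlap.

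Of the receptors, only *Erbb2* was called, as higher at 30 ng/ml and with the mean of both concentrations but not at 100 ng/ml alone. It had 18.0, 18.8, 17.8, 18.6 and 19.2 CPM in unstimulated cultures. It had 20.4, 21.6, 20.6, 22.9 and 23.4 CPM at 30 ng/ml and 22.4, 18.7, 22.3, 20.5 and 20.02 CPM at 100 ng/ml. All 5 cultures at 30 ng/ml lay above every unstimulated culture, which held for either direction in 8.87% of the genes tested. At 100 ng/ml 4 of 5 did, and replicate 2 lay within the unstimulated range.

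At 30 ng/ml *Erbb2* was higher by 0.24 ± 0.06 (SE) on the log2 scale, or 17.7% (95% interval 8.27% to 28%, FDR = 0.0176). It was the only member called of 5 tested, where 7.87% of all genes were called. With the mean of both concentrations it was higher by 0.20 ± 0.05 (15%, FDR = 0.0139), again as 1 of 5 members where 11.9% of all genes were called. At 100 ng/ml alone the difference of 0.17 ± 0.06 (12.4%, 95% interval 3.40% to 22.2%) was not called (FDR = 0.0702), and 0 of 5 members were called where 9.77% of all genes were. Of these 5 members, *Erbb2* was the only one with an unadjusted p under 0.05 at 100 ng/ml (0.00876 from edgeR), and DESeq2 called 0 of them as well. *Nrg4*, not among the 5, had an unadjusted p of 0.00963 there from edgeR among genes with at least 10 counts in every culture. Between the concentrations *Erbb2* differed by -0.07 (95% interval -0.19 to 0.05, FDR = 0.667), so its call at 30 ng/ml was not shown to be particular to that concentration. Both comparisons share the unstimulated cultures.

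At 30 ng/ml *Erbb2* was called in 23 of 25 settings, the reported one included. It missed the threshold without unstimulated replicate 3 (log2 fold change 0.22, FDR = 0.0515) and without replicate 5 of the stimulated group (0.21, FDR = 0.0557). At 100 ng/ml its FDR was 0.0146 without replicate 2, with a log2 fold change of 0.21. The mean of both concentrations was called under every alternative that was run, with an FDR of at most 0.0454. Of 10 astrocyte markers, 4 were called higher and none lower at 30 ng/ml, 2 higher and 1 lower at 100 ng/ml and 5 higher and 1 lower with the mean of both. Their median log2 fold change was 0.18, 0.03 and 0.10 in that order. Their summed level was 4519 to 5279 TPM against 3814 to 4276 TPM in unstimulated cultures and 4231 to 4691 TPM at 100 ng/ml, with *Gjb6* the only astrocyte marker below 1 TPM in unstimulated cultures. Of 12 microglia markers, 7 were called lower at 30 ng/ml, 0 at 100 ng/ml and 4 with the mean of both, and none higher. Their summed level was 7118 to 10030 TPM unstimulated, 5654 to 7110 TPM with 30 ng/ml and 6771 to 9004 TPM with 100 ng/ml. Their part in the *Erbb2* result was not tested.

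*Erbb3*, the receptor known from Schwann cells and the oligodendrocyte lineage, had 21.4, 20.6, 17.8, 16.8 and 21.1 CPM in unstimulated cultures. It had 22.8, 17.2, 19.8, 19.5 and 16.4 CPM at 30 ng/ml and 19.7, 18.8, 17.7, 21.5 and 18.9 CPM at 100 ng/ml, with overlapping groups. The log2 fold change was -0.03 (95% interval -0.21 to 0.16, FDR = 0.889) at 30 ng/ml and -0.01 (-0.20 to 0.17, FDR = 0.939) at 100 ng/ml, and differences within these intervals were not excluded. Of 14 oligodendrocyte-lineage markers, 1 was called lower at 30 ng/ml and 4 at 100 ng/ml, none higher, and the summed level was 7129 to 10550 TPM in unstimulated cultures and 6418 to 7745 TPM at 100 ng/ml.

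*Erbb4* was the receptor with the widest spread. It had 40.3, 36.5, 30.2, 31.6 and 36.3 CPM without IL-12, 41.7, 38.5, 31.4, 33.7 and 41.4 CPM at 30 ng/ml and 22.9, 38.9, 33.1, 29.5 and 32.8 CPM at 100 ng/ml. Replicate 1 at 100 ng/ml was the lowest of all 15 cultures, and the 3 groups overlapped. The log2 fold change was 0.09 (95% interval -0.15 to 0.34, FDR = 0.697) at 30 ng/ml and -0.16 (-0.40 to 0.09, FDR = 0.421) at 100 ng/ml. The latter was -0.06 (FDR = 0.777) without replicate 1 of that group and -0.24 (FDR = 0.142) without replicate 2. Between the concentrations *Erbb4* was at -0.25 ± 0.12 (SE), 100 against 30 ng/ml (95% interval -0.50 to -0.01, unadjusted p = 0.0444 from edgeR), with an FDR of 0.380, and at -0.16 (FDR = 0.673) without replicate 1 at 100 ng/ml. Of 5 members, 0 were called between the concentrations by edgeR and by DESeq2, where edgeR called 0.579% of all genes, and *Erbb4* was the only member with an unadjusted p under 0.05.

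**Figure D3:**
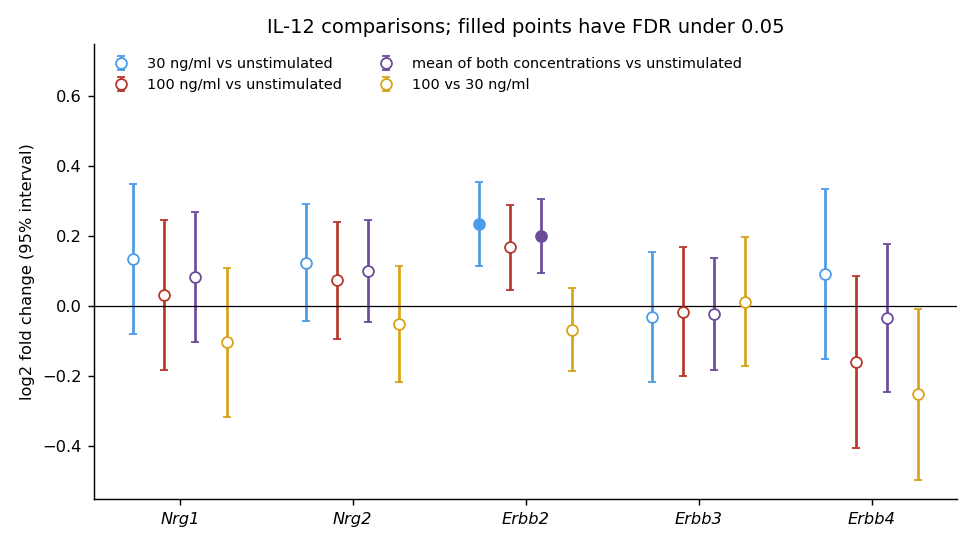
Log2 fold change of the 5 members tested with 95% intervals in 4 comparisons; filled points have an FDR under 0.05 from edgeR. Only *Erbb2* has filled points, at 0.24 for 30 ng/ml and 0.20 for the mean of both concentrations.

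The members were also described by transcript. Of 66 transcripts in the files, 30 had a mean of at least 0.1 TPM and 13 passed the filter of 1 CPM in 2 cultures. None of the 13 was called in any comparison by edgeR (smallest FDR 0.576) or by DESeq2. At an unadjusted p under 0.05, edgeR called 0 of them, and its smallest unadjusted p was 0.0799, for Erbb2-201. Among all 41466 transcripts tested, 0.359% were called at 30 ng/ml, 0.559% at 100 ng/ml, 0.784% with the mean of both and 0.0217% between the concentrations.

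By estimated counts, most of *Nrg1* was assigned to type I transcripts, whose protein has an Ig-like domain and can be released from the membrane. Transcripts with the type I start held 73.2% ± 4.53 (SD, n = 15) of the gene's estimated counts, those with the exon of the cysteine-rich domain (type III, the form that stays tethered on axons) 24.6% ± 3.99, and those with the type II start 0.121%. By group the type III share was 25.9% ± 3.89 (SD, n = 5) unstimulated, 25.3% ± 4.66 at 30 ng/ml and 22.8% ± 3.48 at 100 ng/ml. Per length the shares lay closer, at 49.8% ± 8.61 of the gene's TPM (26.9% to 60.3%) for type I and 43.1% ± 6.84 for type III. The beta exon printed above was used without the alpha exon in 81.2% ± 4.31 of counts and the alpha exon without the beta exon in 17.0% ± 4.41, or 64.0% ± 6.73 and 30.6% ± 7.04 of TPM. The leading transcript, Nrg1-203, is a type I beta form and held 51.7% to 64.2% of counts. Its model has 5846 bases in the files and 6519 in GENCODE M39. The type III models Nrg1-201 and Nrg1-224 have 3049 and 2520 bases in the files, but 6927 and 6603 in GENCODE M39. The part of these shortened models in the type and exon shares was not tested. The minor transcripts were set apart poorly: of the 12 *Nrg1* transcripts with at least 0.1 TPM, Nrg1-213 was at 0 counts in 11 of 15 cultures.

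*Erbb4* transcripts with the JM-a exon held 97.4% ± 2.03 of counts and those with the JM-b exon 2.54% ± 2.04. Per length the JM-b share was 13.6% and ranged from 0% to 38.1% between cultures, since Erbb4-205, which carries most of it, is a model of 2196 bases beside 11782 bases for Erbb4-201 and had between 0 and 77.0 counts. Erbb4-202, which skips the CYT-1 exon, held 53.5% ± 8.47 of counts, and Erbb4-201, which includes it, 43.9% ± 9.27 (range 19.6% to 56.8%). That exon makes up 0.407% of the length of Erbb4-201. Erbb4-202 has 12037 bases in the files without that exon. The models thus also differ elsewhere, and this split does not rest on the exon alone.

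*Erbb2* was divided between its coding transcript Erbb2-201, with 47.2% of counts (34.0% to 58.7%), and Erbb2-202, with the retained intron, with 52.8% (41.3% to 66.0%). Both were higher in stimulated cultures: Erbb2-201 had 2.92 ± 0.42 TPM (SD, n = 5) unstimulated, 3.46 ± 0.45 at 30 ng/ml and 3.29 ± 0.35 at 100 ng/ml, and Erbb2-202 had 3.76 ± 0.32, 4.56 ± 1.01 and 4.17 ± 0.60 TPM. These differences were not called for either transcript. The retained intron has 81 bases, and the models have 5012 bases (Erbb2-201) and 4431 bases (Erbb2-202) in the files. The models thus also differ outside the intron, and the split between them does not measure its retention alone. *Erbb3* has 1 transcript in the files. For *Nrg4*, Nrg4-209, which has no defined coding sequence, held a mean of 17.3 counts (60.8% of the gene's counts) in unstimulated cultures, 5.47 counts (29.6%) at 30 ng/ml and 5.42 counts (25.1%) at 100 ng/ml, and its ranges of 9.01 to 23.98, 2.85 to 10.52 and 0 to 12.53 counts overlapped. The lower *Nrg4* counts of stimulated cultures were thus mostly those of Nrg4-209, whereas Nrg4-207 had 4.07, 4.57 and 5.85 counts. *Nrg3* counts came mostly from Nrg3-201 (76.4%).

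The share of a gene's TPM held by its leading transcript was compared for *Nrg1*, *Nrg2*, *Erbb2* and *Erbb4* in 12 two-sided exact permutation tests, for which 0.00794 is the smallest p that 5 cultures against 5 allow. None was called, and every adjusted p was 1. The largest difference in that share, -2.99 percentage points for Nrg1-203 at 30 ng/ml, had an exact p of 0.151. The IL-12 difference of *Erbb2* was thus not assigned to either of its transcripts: the share of Erbb2-202 was 56.4% ± 8.26 at 30 ng/ml and 56.4% ± 5.05 in unstimulated cultures.

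**Figure D4:**
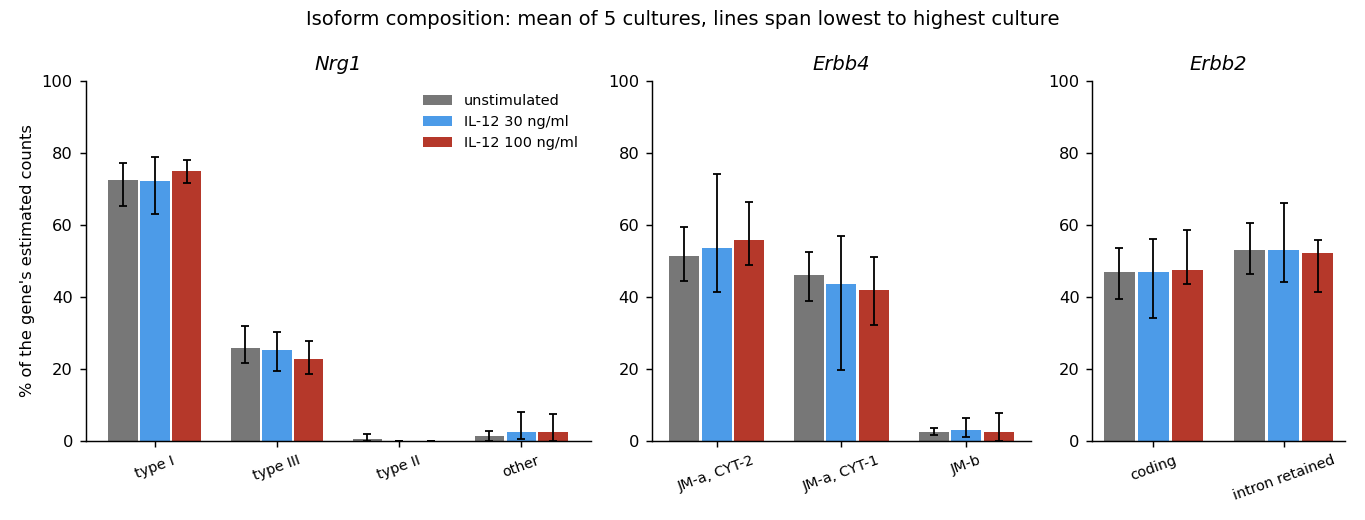
Share of each gene's estimated counts (percent) in isoform classes of *Nrg1*, *Erbb4* and *Erbb2*; bars are means of 5 cultures and lines run from the lowest to the highest culture. Type I *Nrg1* and JM-a *Erbb4* lead in every group, and all ranges overlap between groups.

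Genes of the pathway around the members were taken from 5 lists with 83 genes, of which 79 were tested. Of these, 7 (8.86%) were called at 30 ng/ml, 13 (16.5%) at 100 ng/ml and 13 (16.5%) with the mean of both, beside 7.87%, 9.77% and 11.9% of all genes. At 30 ng/ml 3 were higher and 4 lower, where 4.16% of all genes were higher and 3.71% lower. At 100 ng/ml 3 were higher and 10 lower, where 5.83% and 3.93% of all genes were. With the mean of both 4 were higher and 9 lower, where 6.71% and 5.22% of all genes were. None was called between the concentrations by edgeR or DESeq2. Without replicate 2 at 100 ng/ml, 31 were called at that concentration and 25 with the mean of both, while 2976 of all genes were called at 100 ng/ml in place of 1500. The counts also fell to 2 at 100 ng/ml and 2 with the mean when TPM scaled by length replaced the counts. The calls of *Pik3r3* at both concentrations and of *Spry2* at 30 ng/ml held without each culture in turn (FDR at most 0.0437 and 0.0443). So did those of *Grb2* and *Aph1c* with the mean of both. All other calls of pathway genes given below were lost without at least 1 culture.

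Among 8 genes for other EGF-family ligands and *Egfr*, 5 were tested. *Ereg*, which encodes epiregulin, a ligand of EGFR and ErbB4, rose at 100 ng/ml by 0.57 ± 0.16 (SE) on the log2 scale (FDR = 0.0298), from 0.756 to 1.09 CPM in unstimulated cultures to 1.14 to 1.69 CPM, with no overlap, as did 7.17% of all genes at this concentration in either direction. It had 0.958 to 1.09 CPM at 30 ng/ml (log2 fold change 0.17, FDR = 0.581). The *Ereg* call was lost without 4 of the 15 cultures in turn, with the highest FDR (0.0756) without replicate 1 at 100 ng/ml. It was also lost without a filter, with TPM scaled by length and with only the groups compared. None of the 5 was called at 30 ng/ml, and the list's median log2 fold change was 0.07 there and -0.01 at 100 ng/ml, beside 0.00 over all genes. *Egfr*, the remaining receptor of the family and named for that reason outside the rule for named genes, had 9.14 TPM unstimulated, 9.94 at 30 ng/ml and 9.82 at 100 ng/ml, above the TPM of the other ErbB receptors.

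All 13 genes for sheddases and gamma-secretase, the proteases that release neuregulins and cut ErbB4, were tested. *Aph1c*, a gamma-secretase subunit, fell by 0.38 ± 0.10 at 30 ng/ml (FDR = 0.0309) and by 0.35 ± 0.10 at 100 ng/ml (FDR = 0.0364). It had 7.22 to 9.96 CPM unstimulated, 5.48 to 7.58 at 30 ng/ml and 6.11 to 7.38 at 100 ng/ml, so the ranges overlapped. *Bace2*, a relative of the neuregulin-cutting protease BACE1, fell at 100 ng/ml by 0.18 ± 0.04 (FDR = 0.0178), from 111.8 to 127.5 CPM to 97.6 to 111.8 CPM, and had an FDR of 0.0589 without unstimulated replicate 5. The *Bace2* call was also lost without a filter, with TPM scaled by length and with only the groups compared. *Aph1c* lost its call at 30 ng/ml without 5 of the 15 cultures (FDR up to 0.0887, without unstimulated replicate 3) and at 100 ng/ml without 6 (up to 0.0890, without replicate 3 at 100 ng/ml). With the mean of both it fell by 0.37 ± 0.09 (FDR = 0.0119). That call held without each culture in turn (FDR at most 0.0443) but was lost with TPM scaled by length, as were the *Aph1c* calls at each concentration. At 100 ng/ml the *Aph1c* call was also lost without a filter. No gene of this list was called higher, and its median log2 fold change was -0.04 with 30 and -0.02 with 100 ng/ml.

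Of 37 adaptors and kinases, 36 were tested, and 7 fell and 1 rose at 100 ng/ml, with a median log2 fold change of -0.06. *Pik3r3*, a regulatory subunit of PI 3-kinase, had the largest change: it had 93.5 to 116 CPM unstimulated, 80.01 to 93.9 at 30 ng/ml and 65.9 to 81.5 at 100 ng/ml. Its ranges at 100 ng/ml and in unstimulated cultures did not overlap, as held for 7.17% of all genes in either direction. It fell by 0.51 ± 0.07 (FDR = 0.000260) at 100 ng/ml and by 0.30 ± 0.07 (FDR = 0.0142) at 30 ng/ml. Its call at 30 ng/ml was lost with TPM scaled by length. *Grb2*, the adaptor that links receptors to RAS, fell by 0.20 ± 0.05 (FDR = 0.0182) at 30 ng/ml and by 0.18 ± 0.05 (FDR = 0.0318) at 100 ng/ml. With the mean of both it fell by 0.19 ± 0.04 (FDR = 0.00794, and at most 0.0314 without any culture). The docking protein gene *Gab1* (-0.22, FDR = 0.0287), the Src-family kinase *Fyn* (-0.15, FDR = 0.0209) and *Map2k1*, which encodes the ERK kinase MEK1 (-0.14, FDR = 0.0211), fell at 100 ng/ml, and *Pik3cb*, a catalytic subunit of PI 3-kinase, fell with the mean of both (-0.14, FDR = 0.0386). The gene that rose at 100 ng/ml, chosen after its values were seen, was *Stat5a* (0.26 ± 0.08, FDR = 0.0401), a transcription factor that cytokine receptors also use. At 30 ng/ml the adaptor *Shc4* rose by 0.22 ± 0.06 (FDR = 0.0395). The call was lost without 4 of the 15 cultures in turn for *Gab1*, 7 for *Stat5a*, 3 for *Fyn*, 1 for *Map2k1*, and 9 each for *Pik3cb* and *Shc4*. For *Grb2* it was lost without 4 at 30 ng/ml and 6 at 100 ng/ml. Without a culture in turn, the highest FDR was 0.0941 for *Gab1* and 0.105 for *Stat5a*, both without unstimulated replicate 1, 0.0757 for *Fyn* and 0.101 for *Pik3cb*, both without unstimulated replicate 5, 0.0511 for *Map2k1* without replicate 5 at 100 ng/ml, and 0.111 for *Shc4* without unstimulated replicate 3. For *Grb2* it was 0.0565 at 30 ng/ml, without replicate 1 of that group, and 0.0897 at 100 ng/ml, without replicate 3 of that group. At 100 ng/ml, calls were also lost without a filter for *Grb2*, *Fyn*, *Map2k1* and *Stat5a*. With TPM scaled by length they were lost for *Gab1*, *Fyn*, *Map2k1* and *Stat5a*. With only the groups compared they were lost for *Gab1*, *Grb2*, *Fyn* and *Map2k1*. *Pik3cb* with the mean of both was not called under 3 of the 8 other alternatives and *Shc4* at 30 ng/ml under 2 of the 9.

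Of 16 genes known to restrain ErbB signaling, the Sprouty genes *Spry2* (0.20 ± 0.05, FDR = 0.0136) and *Spry4* (0.21 ± 0.05, FDR = 0.0241) rose at 30 ng/ml. *Spry2* had 33.7 to 39.3 CPM unstimulated, 41.0 to 44.2 at 30 ng/ml and 37.7 to 40.3 at 100 ng/ml. Its unstimulated and 30 ng/ml ranges did not overlap, as held for 8.87% of all genes in either direction. *Cblb*, a ubiquitin ligase, fell at 100 ng/ml (-0.20 ± 0.06, FDR = 0.0487). With the mean of both, *Lrig1*, whose protein drives ErbB receptors into degradation, rose by 0.14 ± 0.04 (FDR = 0.0350) and the ERK phosphatase *Dusp6* fell by 0.22 ± 0.07 (FDR = 0.0420). The call of *Lrig1* was lost without 9 of the 15 cultures in turn, that of *Dusp6* without 10, that of *Cblb* without 13 and that of *Spry4* without 5. The highest FDR was 0.106 for *Lrig1* and 0.144 for *Dusp6*, both without unstimulated replicate 4. It was 0.135 for *Cblb* without unstimulated replicate 1 and 0.0702 for *Spry4* without replicate 5 at 30 ng/ml. *Cblb* was also not called under 6 of the 9 other alternatives, and *Spry4* at 30 ng/ml under 1 of the 9. With the mean of both, *Lrig1* was not called under 2 of the 8 and *Dusp6* under 1 of the 8. The median log2 fold change of the list was 0.03 with 30 and 0.00 with 100 ng/ml.

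Of 9 genes for scaffolds that can hold ErbB4 at synapses, *Dlg2* (PSD-93) fell at 30 ng/ml by 0.41 ± 0.12 (FDR = 0.0427), and *Dlg3* (SAP102) rose at 100 ng/ml by 0.20 ± 0.06 (FDR = 0.0401). *Dlg4* (PSD-95) rose by 0.12 ± 0.04 with the mean of both (FDR = 0.0464). The *Dlg2* call was lost without 9 of the 15 cultures in turn, that of *Dlg3* without 7 and that of *Dlg4* without 12. The highest FDR without a culture was 0.112 for *Dlg2*, without replicate 5 at 30 ng/ml, 0.0983 for *Dlg3*, without unstimulated replicate 5, and 0.117 for *Dlg4*, without unstimulated replicate 4. *Dlg4* was also not called under 4 of the 8 other alternatives, *Dlg3* at 100 ng/ml under 4 of the 9 and *Dlg2* at 30 ng/ml under 2 of the 9. The *Dlg2* value had the opposite sign, 0.08, with TPM scaled by length. Of 18 neuron markers, 2 were called lower and 1 higher at 30 ng/ml, 1 lower at 100 ng/ml, and 4 lower and 1 higher with the mean of both. Their median log2 fold change was -0.31 with 30 and -0.19 with 100 ng/ml. Their summed level was 305 to 376 TPM unstimulated, 346 to 390 TPM at 30 ng/ml and 326 to 351 TPM at 100 ng/ml, and the part of these markers in the scaffold values was not tested.

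**Figure D5:**
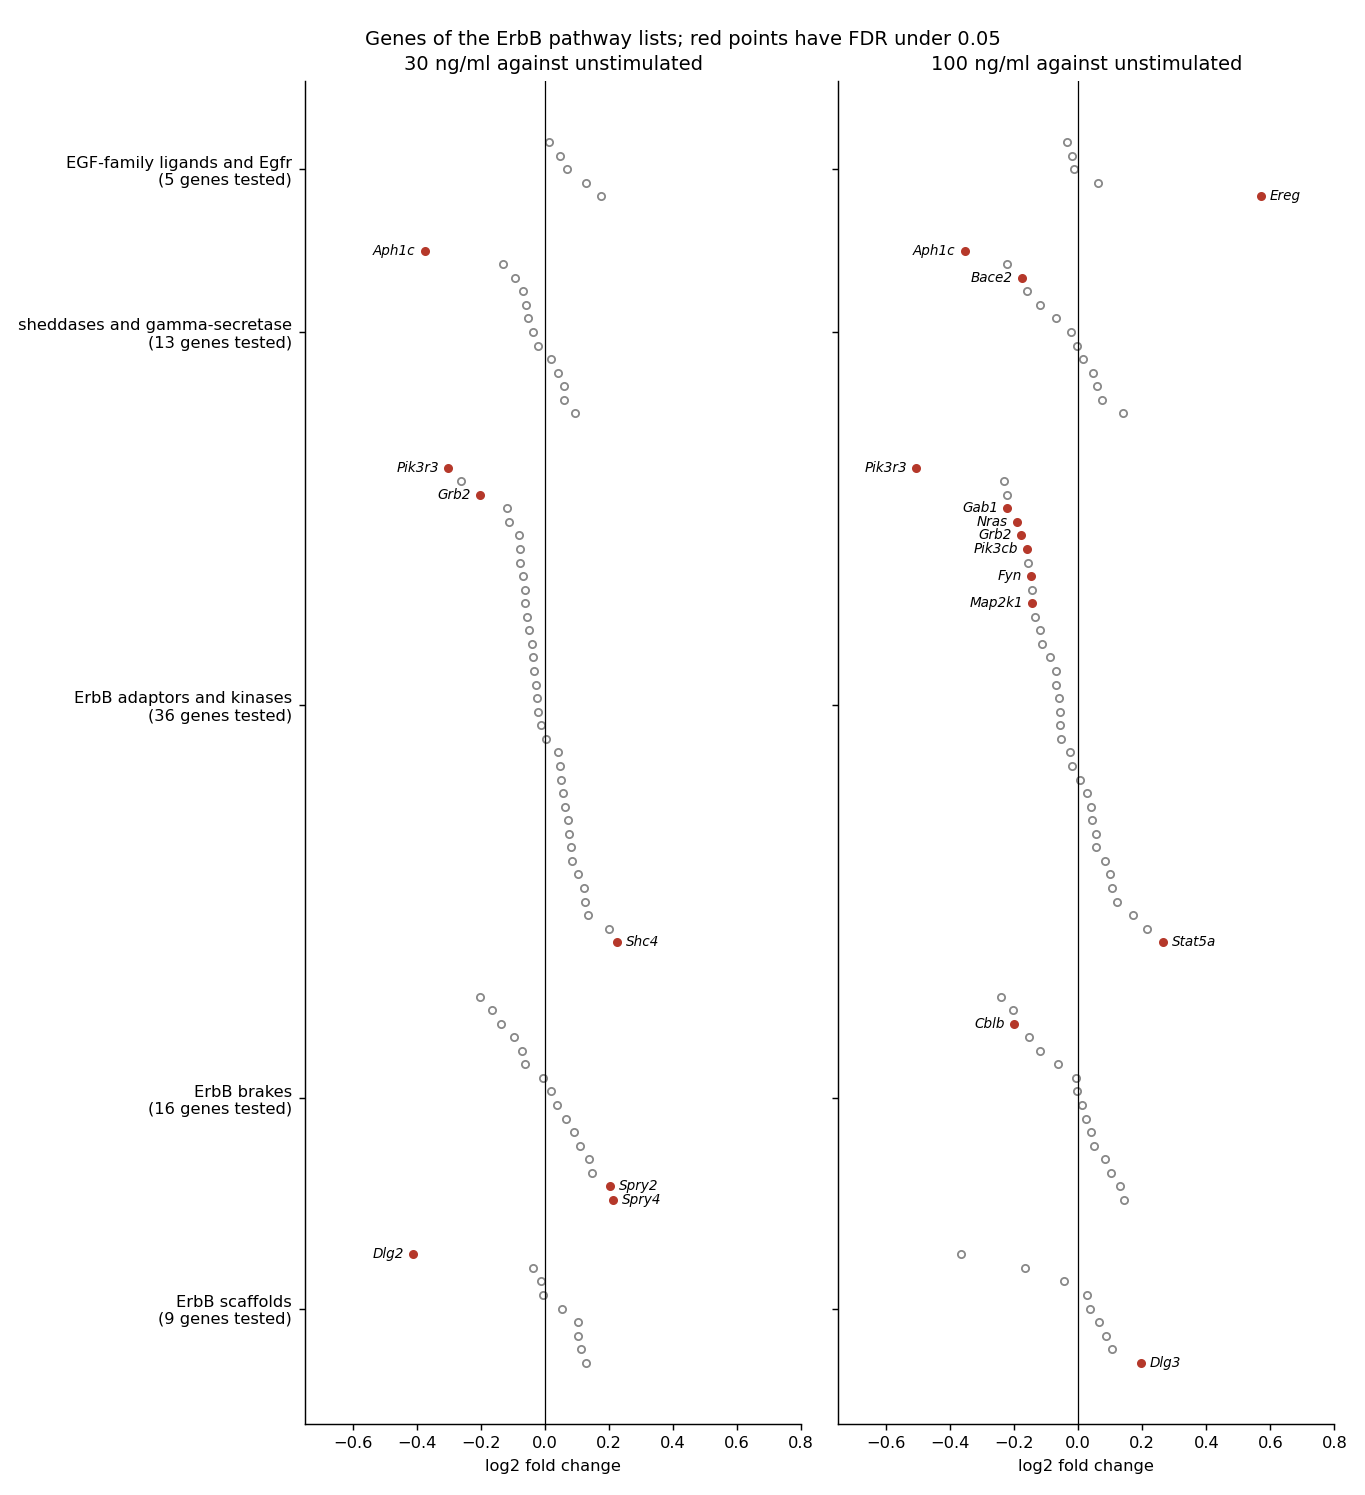
Log2 fold change against unstimulated cultures of the 79 tested genes of 5 pathway lists, at 30 ng/ml (left) and 100 ng/ml (right); each point is a gene, and red points with names have an FDR under 0.05 from edgeR. *Ereg* lies farthest to the right and *Pik3r3* farthest to the left at 100 ng/ml.

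The genes whose log2 CPM followed each member most closely over the 15 cultures were listed as a description, since all points share libraries and scaling. *Erbb2* was followed by *Fgfr1* (Pearson's r = 0.943), *Tst* (0.935) and *Ephb3* (0.934), and *Erbb4* by *Arfgef3* (0.967), *Rab11fip2* (0.959) and *Fzd3* (0.957). *Nrg1* was followed by *Fam120c* (0.925), *Slf2* (0.924) and *Sgcd* (0.910), *Nrg2* by *Zcchc3* (0.835), *Gpr45* (0.834) and *Fahd1* (0.828), and *Erbb3* by *Dpp10* (0.774), *Itpk1* (0.762) and *Itgax* (0.756). Among the members themselves, r was 0.709 between *Nrg1* and *Erbb4* and 0.599 between *Nrg2* and *Erbb2*, and lay between -0.239 and 0.0580 for the other 8 pairs.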

How the data were processed

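The RNA was sequenced as stranded, poly(A)-selected, single-end libraries. The methods name FastQC 0.10.0, STAR 2.7.8a and featureCounts on GRCm39, but the deposited files hold estimated counts and TPM per transcript, from a program not given in the sources used here. The deposited TPM are scaled by effective length. The 121798 transcripts were matched by identifier to GENCODE M39 (99.0%), and estimated counts were summed by gene and rounded. Unmatched transcripts held 0.677% to 0.712% of the counts of a culture. Transcript lengths equalled those of M39 for 51 of 66 member transcripts. Genes that reached 1 CPM in 2 or more cultures were scaled with TMM (factors 0.981 to 1.02) and fitted with edgeR 4.0.16 (quasi-likelihood, R 4.3.3) in a single model of the 3 groups, with Benjamini-Hochberg adjustment over all genes, and the biological coefficient of variation was 8.00%. Calls were made at an FDR under 0.05. Transcript shares were tested by exact permutation with adjustment over 12 tests (scipy 1.17.1). Alternatives included DESeq2 1.42.0, other scalings, filters and counts, the replicate number as a block and each culture left out. Named were the members, their transcripts with at least 0.1 TPM, up to 4 called genes of smallest p per pathway list and comparison, and the 3 genes most like each tested member. The members, lists and rules were chosen with earlier results of these data known.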

Additional observations from a re-analysis of the deposited data

How the results depend on the processing

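Of 475 values of the 5 tested members under alternatives, 455 kept their direction and their side of the threshold. *Erbb2* lost its call at 30 ng/ml without unstimulated replicate 3 or 30 ng/ml replicate 5 and gained it at 100 ng/ml without replicate 2 of that group, so members called ranged from 0 to 1 at each concentration when a culture was left out. With at least 10 counts in every culture, 2 members were called with the mean of both concentrations, since *Nrg4* was then tested. Signs turned for uncalled values near 0: leaving out a culture gave -0.060 to 0.10 for *Nrg1* at 100 ng/ml, -0.082 to 0.027 for *Erbb4* with the mean of both (0.011 with TPM scaled by length), and for *Erbb3* -0.064 to 0.025 at 100 ng/ml, -0.10 to 0.023 at 30 ng/ml, -0.071 to 0.017 with the mean and -0.036 to 0.088 between concentrations. *Dlg2* turned to 0.084 at 30 ng/ml with TPM scaled by length.

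Pathway genes called moved more. At 100 ng/ml there were 2 without a filter, 2 with TPM scaled by length and 3 with only the groups compared. At 30 ng/ml there were 4 with TPM scaled by length and 11 with only the groups compared, and with the mean of both 5 without a filter and 2 with TPM scaled by length. Leaving out a culture gave 3 to 31 at 100 ng/ml, 2 to 10 at 30 ng/ml, 4 to 25 with the mean and 0 to 1 between concentrations. The count at 100 ng/ml moved by over 1.5 times without unstimulated replicates 1, 3 or 5 or 100 ng/ml replicates 1, 2, 3 or 5. Over all genes, 1500 at 100 ng/ml, 1209 at 30 ng/ml and 1832 with the mean became 896, 769 and 1191 with TPM scaled by length, 947 at 100 ng/ml with only the groups compared, and 935 to 2976, 676 to 1668 and 1207 to 2860 without a culture in turn. Between the concentrations 89 became 247 with DESeq2, 253 with a likelihood-ratio test and 38 to 157 without a culture. The cause was not tested. With the replicate block 8 pathway genes were called at 100 ng/ml, 5 at 30 ng/ml and 8 with the mean. *Shc4* and *Dlg2* lost their calls at 30 ng/ml and *Stat5a*, *Dlg3*, *Cblb* and *Pik3cb* at 100 ng/ml. With the mean of both, *Fyn*, *Map2k1*, *Cblb*, *Spry4* and *Dlg4* were no longer called. No call of a member changed. The numbers are not shown to pair cultures: same-numbered cultures of different groups correlated at -0.183 to 0.264 in their deviations, over 0.1 in 4 of 15 pairs, and 0 of 15 cultures correlated best with their own number.

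Depth limits *Nrg3* and *Nrg4*, with at most 27 and 38 counts in a culture, and the split between isoforms of the same gene.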
